A study of Homo sapiens with 17 samples.

Results

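The genes described here are those whose poly(A) RNA was present in the input of one genotype of HEK293T cells and close to absent from the input of the other. A gene was taken when its mean was at least 50 raw counts over the 3 inputs of one genotype and when each of the 3 inputs of the other held at most 3 counts. Zinc finger (ZNF), HOX, histone, collagen, SLC25 and IFIT genes and CCL5, CXCL10, RSAD2, IFI44 and OXCT1 were excluded by name. Of 23368 genes in the table, 55 were kept, 24 on in siTDP43 and 31 on in WT. Another 4 genes on in WT, CCL5, CXCL10, IFI44 and RSAD2, met the count limits and were left out by name. NPY1R and NME5, which had been given as markers of the genes on in siTDP43, both met the rule.

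HEK293T is a human embryonic kidney line that carries the SV40 large T antigen. The 17 libraries were made from cells labelled WT and from cells labelled siTARDBP, which received siRNA against TDP43, the RNA-binding protein encoded by TARDBP, in repeated transfections. Each genotype was measured as input RNA with no antibody (3 libraries each), as pull-down with an antibody against N4-acetylcytidine (ac4C) (IP, 3 each), and as a mock pull-down with nonspecific immunoglobulin (IgG, 2 in WT and 3 in siTDP43). The labels name no control siRNA for the WT cells, so knockdown, transfection and any difference between the cultures cannot be told apart. The labels do not say whether replicates were separate cultures, and p-values then measure only the spread between these libraries. The IP and IgG libraries may also hold RNA of the same cultures as the inputs.

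Total counts were 24542434 to 36583436 in the inputs, 8610070 to 21066215 in IP and 3013989 to 9466855 in IgG, with the lowest totals in siTDP43 IgG. TARDBP had 101 to 107 CPM (the usual scaling of counts to the library total) in siTDP43 input and 163 to 169 in WT input, and it was also lower in siTDP43 IP (55.2 to 59.7, against 125 to 128) and IgG (47.4 to 71.6, against 89.8 to 97.2). All 12 listed HEK293T genes had more than 3 counts in at least 1 input. Their summed level was 704 to 752 CPM in siTDP43 input and 1407 to 1417 in WT input. Markers of other cell types were low in both inputs: endothelial genes summed to 0.215 to 0.519 CPM, with PECAM1 and CDH5 at 0. Blood genes summed to 8.19 to 11.6 CPM, with PTPRC at 0. Fibroblast genes summed to 23.4 to 25.3 CPM in WT input and 4.22 to 4.93 in siTDP43 input, where S100A4 had 49 to 57 counts against 522 to 758. Their part in the results was not tested.

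A cell uses only part of its genes, and the rest are held off by closed chromatin, by DNA methylation or Polycomb marks at their start sites, or by the lack of an activating factor. RNA can also be made and then removed by decay. TDP43 binds UG-rich RNA and acts in splicing and RNA stability, so RNA counts alone do not tell which of these steps set a level. In bulk RNA, fewer cells that express a gene and less RNA per cell cannot be told apart either.

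Start regions of 8 genes are shown to let a reader compare the kinds of promoter among them. The first 4 belong to the interferon and chemokine genes on in WT: IFNB1 is interferon beta, CXCL11 and CCL20 are chemokines, and VCAM1 is an adhesion molecule that inflammatory signals induce. Each stretch is the 100 bases before the annotated start, from RefSeq on GRCh38.p14, 5′ to 3′ on the gene's strand. Capitals mark matches to the NF-kappaB motif, which was GGG, A or G, any base, A or T, C or T, C or T, CC. In CCL20 that match is on the opposite strand. Capitals at the end of VCAM1 mark a match, also on the opposite strand, to GAAA repeated after any 2 bases. That repeat is part of the sites bound by interferon regulatory factors.
IFNB1 (chr9:21077943-21078042, minus strand): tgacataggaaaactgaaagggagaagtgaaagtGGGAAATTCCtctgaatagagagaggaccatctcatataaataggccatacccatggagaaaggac
CXCL11 (chr4:76036071-76036170, minus strand): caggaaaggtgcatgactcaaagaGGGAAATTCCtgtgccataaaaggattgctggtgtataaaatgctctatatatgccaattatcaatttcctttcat
CCL20 (chr2:227813742-227813841, plus strand): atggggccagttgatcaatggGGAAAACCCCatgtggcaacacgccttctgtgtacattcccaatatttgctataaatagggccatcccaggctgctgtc
VCAM1 (chr1:100719642-100719741, plus strand): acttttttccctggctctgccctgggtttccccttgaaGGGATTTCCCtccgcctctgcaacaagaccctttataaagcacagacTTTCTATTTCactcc

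The NF-kappaB match began 66 bases before the start in IFNB1, 76 in CXCL11, 79 in CCL20 and 62 in VCAM1. IFNB1 and CXCL11 carried the same 10 letters. These stretches held 0 or 1 CpG.

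The other 4 stretches, 250 bases each from the same source, come from genes of both directions whose starts held many CpG dinucleotides, the sites of DNA methylation. Here the capitals mark every CpG. NPY, NPY1R and TAC1 were on in siTDP43 and PSMD5 was on in WT.
NPY (chr7:24283940-24284189, plus strand): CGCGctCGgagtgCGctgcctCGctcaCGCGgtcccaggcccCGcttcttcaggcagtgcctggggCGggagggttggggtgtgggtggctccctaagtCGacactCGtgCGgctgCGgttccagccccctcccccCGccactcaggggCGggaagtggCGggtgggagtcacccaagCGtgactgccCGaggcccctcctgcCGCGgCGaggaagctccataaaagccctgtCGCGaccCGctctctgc
NPY1R (chr4:163332597-163332846, minus strand): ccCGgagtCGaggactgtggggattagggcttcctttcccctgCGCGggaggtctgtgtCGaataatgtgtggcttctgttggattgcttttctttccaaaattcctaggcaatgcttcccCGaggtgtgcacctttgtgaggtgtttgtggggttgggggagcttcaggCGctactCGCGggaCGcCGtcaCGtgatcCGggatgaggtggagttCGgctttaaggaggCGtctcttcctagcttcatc
TAC1 (chr7:97731836-97732085, plus strand): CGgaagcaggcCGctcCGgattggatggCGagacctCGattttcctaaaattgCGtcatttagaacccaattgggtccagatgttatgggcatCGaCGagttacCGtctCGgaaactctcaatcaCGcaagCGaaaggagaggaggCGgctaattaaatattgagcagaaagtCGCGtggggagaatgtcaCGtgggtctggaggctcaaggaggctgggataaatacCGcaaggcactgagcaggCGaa
PSMD5 (chr9:120842923-120843172, minus strand): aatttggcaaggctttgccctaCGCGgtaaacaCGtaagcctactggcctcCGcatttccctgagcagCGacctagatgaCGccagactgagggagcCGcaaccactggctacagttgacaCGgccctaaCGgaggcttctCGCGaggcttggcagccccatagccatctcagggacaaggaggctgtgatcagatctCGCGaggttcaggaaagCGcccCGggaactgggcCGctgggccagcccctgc

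NPY held 24 CpGs in this stretch, TAC1 18, PSMD5 16 and NPY1R 15. No methylation was measured in these cells.

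The inputs chose the genes, so their input values are a description and carry no test. The 24 genes on in siTDP43 summed to 93.6 to 94.0 CPM in siTDP43 input and to 0.109 to 0.325 in WT input. The 31 genes on in WT summed to 156 to 162 CPM in WT input and to 0.354 to 0.611 in siTDP43 input. In the inputs of the other genotype, 16 of the 24 and 15 of the 31 had no count at all. Against a floor of 3 counts per library, the genes on in siTDP43 were at least 21.9 to 112-fold higher there (median of the bounds 36.8), and the genes on in WT were at least 14.5 to 251-fold higher there (median of the bounds 27.3). Across all genes tested between the inputs, edgeR's quasi-likelihood test called 38.6% higher and 40.6% lower in siTDP43, so differences between the genotypes were common throughout this table.

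**Figure D1:**
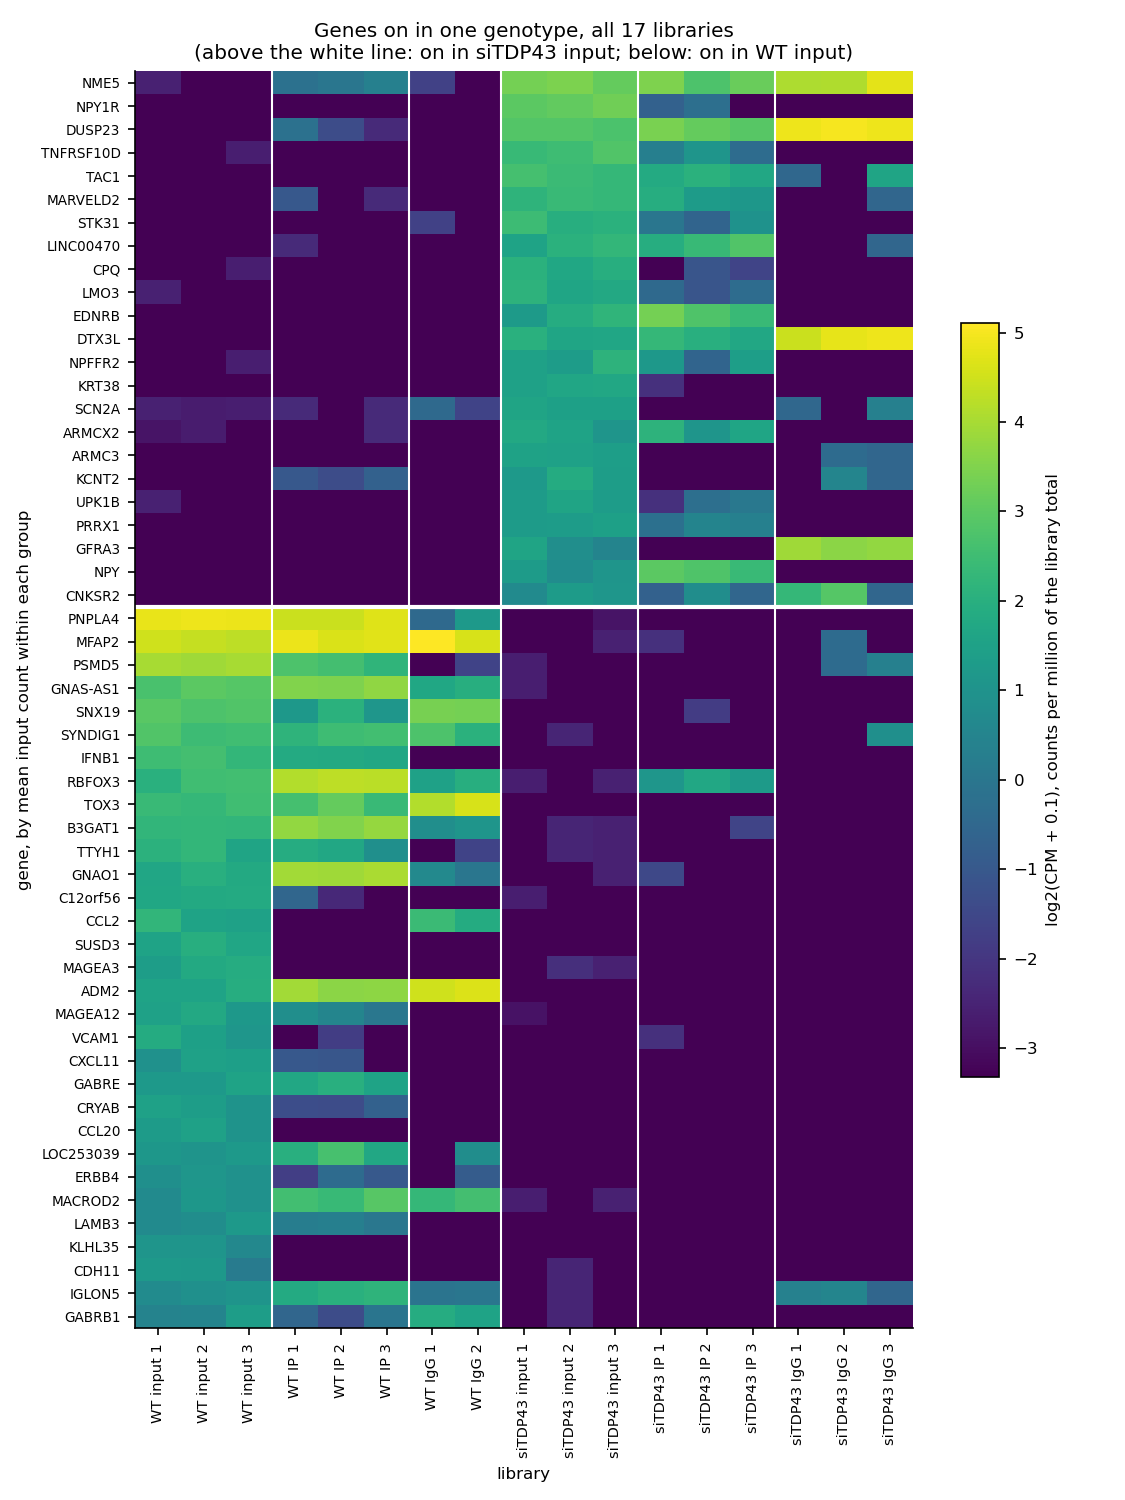
Level of 54 of the genes (rows) in each of the 17 libraries (columns), as log2(CPM + 0.1) of the library total; white lines separate the groups of libraries, and the thick white line separates 23 genes on in siTDP43 (top) from the 31 on in WT. In IP and IgG most of the genes stayed dark in the genotype whose input lacked them, and many were dark in IgG of their own genotype as well.

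Most of the genes were modest transcripts where they were on. Scaled for exon length, the median input level was 1.28 FPKM (CPM per kilobase of exon, 0.291 to 10.4) for the genes on in siTDP43, against 7.04 over the 11061 genes with a mean of at least 50 counts there. It was 1.45 (0.153 to 17.1) for the genes on in WT, against 5.51 over 12026 genes. DUSP23, a small dual-specificity phosphatase, was the highest per length in siTDP43 input and MFAP2, a microfibril protein of the extracellular matrix, the highest in WT input. The limits of the rule were close to some of the genes. On the siTDP43 side, CNKSR2 was inside with a mean of 54.7 counts and NPY5R just outside with 43.7. PARP9 was excluded by 4 counts in 1 WT input, against a mean of 139 counts in siTDP43 input. On the WT side, GABRB1 was just inside with a mean of 54.3 counts and KRT75 just outside with 49.3. OASL, with a mean of 4258 counts in WT input, was excluded because 1 siTDP43 input held 4.

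Neuropeptide Y signalling contributed its ligand and a receptor to the genes on in siTDP43. Neuropeptide Y (NPY) is a peptide transmitter, and NPY1R encodes the Y1 receptor, a G protein-coupled receptor that binds it. NPY1R (hg19 chr4:164245117-164253947) had 240, 204 and 272 counts in the siTDP43 inputs and 0 in every WT library. In the siTDP43 pull-downs it had 8, 8 and 0 counts in IP and 0 in each IgG library. NPY1R was clear in input only. Its IP held 0.0484 times its input CPM, and the difference of IP from IgG did not pass the test (log2 change 5.92 ± 2.83 (SE), adjusted p = 0.0661, edgeR quasi-likelihood test). It passed with DESeq2 (adjusted p = 0.0469), with scaling by total counts (0.0496), with no filter (0.0443) and without siTDP43 IP 3 (0.0198).

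NPY itself (hg19 chr7:24323807-24331484) had 73, 40 and 56 counts in the siTDP43 inputs and 0 in every WT library. In the siTDP43 pull-downs it had 124, 74 and 44 counts in IP and 0 in all 3 IgG libraries. The ligand, unlike its receptor, was strong in the pull-down, with 3.31 times its input CPM in IP. NPY was at least 57.8-fold higher in siTDP43 IP than in WT IP (log2 change 9.99 ± 0.71 (SE), n = 3 and 3, edgeR adjusted p = 8.02e-10). It was at least 6.22-fold higher in siTDP43 IP than in siTDP43 IgG (edgeR adjusted p = 1.40e-06), and the libraries of both pairs did not overlap. WT IP had no count of NPY, so the gene entered the test between genotypes only through siTDP43, and its direction was fixed. The same holds for each gene below that was at the floor in 1 genotype. It also holds for MARVELD2 and GNAO1 in IP and SYNDIG1 in IgG, which were near the floor. No weight is put on those p-values.

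Of the 9 listed genes of the NPY system in the table, 4 could be tested between the inputs. Of these, 3 were higher in siTDP43, namely NPY, NPY1R and NPY5R, beside 38.6% over all genes tested. NPY5R, another receptor of the peptide, had 49, 38 and 44 counts in siTDP43 input and 0, 2 and 0 in WT input. DPP4, a peptidase that trims neuropeptide Y, had 78, 52 and 78 against 89, 110 and 124 counts and did not pass (edgeR adjusted p = 0.162). PYY, PPY, NPY2R, PPYR1 and NPY6R had 0 counts in all inputs. The first pair was chosen by the rule from these inputs, so the count is not independent evidence.

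Other peptide and growth factor signalling genes were on in siTDP43. TAC1 encodes the precursor of substance P and neurokinin A. It had 188, 130 and 133 counts in siTDP43 input, 54, 44 and 28 in siTDP43 IP and 2, 0 and 10 in siTDP43 IgG, and 0 in every WT library. TAC1 was at least 31.2-fold higher in siTDP43 IP than in WT IP (log2 change 9.09 ± 0.79 (SE), edgeR adjusted p = 1.10e-08). Its IP was above its IgG by 1.35 on the log2 scale (edgeR adjusted p = 0.0428), and that call was lost without siTDP43 IgG 2 (log2 change 0.81, adjusted p = 0.182). It was also lost under several other alternatives.

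EDNRB, the endothelin receptor type B, had 72, 90 and 124 counts in siTDP43 input, 160, 74 and 44 in siTDP43 IP, and 0 in every other library. It was at least 64.8-fold higher in siTDP43 IP than in WT IP (log2 change 10.16 ± 0.74 (SE), edgeR adjusted p = 1.04e-09). EDNRB thus had the same pattern as NPY, strong in IP and at 0 in IgG. NPFFR2, a receptor of neuropeptide FF, had 84, 60 and 120 counts in siTDP43 input, 34, 6 and 22 in siTDP43 IP and 0 in both IgG groups and in WT IP.

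GFRA3, a co-receptor of the GDNF family that binds artemin, showed the opposite order. It had 92, 42 and 36 counts in siTDP43 input, 0 in all 3 siTDP43 IP libraries and 50, 37 and 46 in siTDP43 IgG, although IgG was sequenced least. Its level in siTDP43 IgG was 6.81 times its input CPM. GFRA3 was at least 57.9-fold lower in siTDP43 IP than in siTDP43 IgG (log2 change -11.02 ± 0.88 (SE), edgeR adjusted p = 1.38e-09). It was at least 57.0-fold higher in siTDP43 IgG than in WT IgG, where both libraries had 0 (edgeR adjusted p = 9.16e-08, n = 3 and 2).

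**Figure D2:**
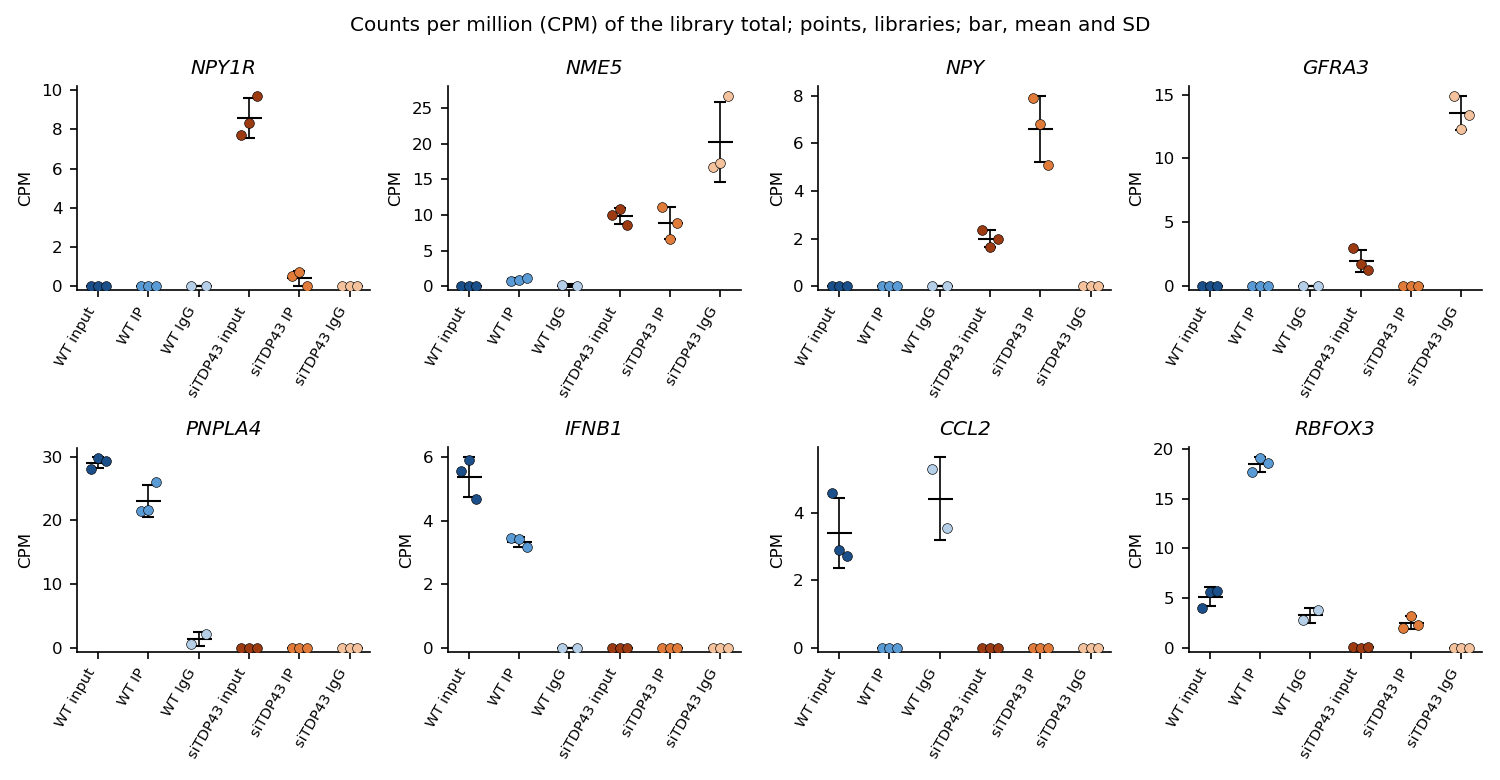
Level of 8 of the genes in CPM of the library total (linear axes from 0) in each library of the 6 groups, with the mean and SD of each group. NPY1R was clear in siTDP43 input only, NPY was highest in siTDP43 IP, GFRA3 and NME5 were highest in siTDP43 IgG, CCL2 was at 0 in WT IP, and RBFOX3 had 20 to 35 counts in siTDP43 IP although its siTDP43 inputs held at most 2.

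NME5, a member of the nucleoside diphosphate kinase family found in cilia and sperm flagella, had the highest mean count of the genes on in siTDP43. It had 312, 267 and 242 counts in siTDP43 input against 2, 0 and 0 in WT input. NME5 was also seen in a pull-down where the input lacked it. WT IP held 16, 19 and 23 counts, and WT IgG 2 and 0. In siTDP43 it had 174, 72 and 77 counts in IP and 56, 52 and 92 in IgG. NME5 was still higher in siTDP43 IP than in WT IP (log2 change 3.59 ± 0.32 (SE), edgeR adjusted p = 4.86e-09), with no overlap. It was lower in siTDP43 IP than in siTDP43 IgG by -1.38 ± 0.25 on the log2 scale (edgeR adjusted p = 4.55e-05). Of 8 NME family genes tested between the inputs, 4 were higher in siTDP43 and 3 lower, beside 38.6% and 40.6% over all genes. NME5 is among the 4, and the rule chose it from these inputs, so its direction was fixed. NME4, the mitochondrial member, was the largest fall in the family (log2 change -2.34 ± 0.04 (SE), edgeR adjusted p = 1.72e-28).

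DUSP23 and DTX3L resembled NME5 in that IgG held more of them than IP. DUSP23 had 222, 176 and 180 counts in siTDP43 input, 166, 93 and 64 in IP and 100, 96 and 101 in IgG. WT libraries had 0 in input, 16, 6 and 2 in IP and 0 in IgG. DUSP23 was lower in siTDP43 IP than in siTDP43 IgG (log2 change -1.96 ± 0.21 (SE), edgeR adjusted p = 3.46e-08).

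DTX3L, a ubiquitin ligase that works in a complex with PARP9, had 124, 74 and 86 counts in siTDP43 input, 76, 42 and 28 in IP, 72, 84 and 102 in IgG and 0 in every WT library. It was lower in siTDP43 IP than in siTDP43 IgG (log2 change -2.90 ± 0.27 (SE), edgeR adjusted p = 5.20e-09). DTX3L and PARP9 lie head to head with starts 338 bases apart, and their exons share 370 bases on opposite strands, so reads there cannot be told apart unless strand was used in counting. PARP9 had 166, 100 and 150 counts in siTDP43 input and 0, 4 and 2 in WT input.

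The remaining genes on in siTDP43 were of mixed function. MARVELD2 (tricellulin, a tight junction protein) had 135, 125 and 135 counts in siTDP43 input and 58, 26 and 18 in IP, against 8, 0 and 2 in WT IP. It was higher in siTDP43 IP than in WT IP (log2 change 4.39 ± 0.63 (SE), edgeR adjusted p = 3.43e-06). MARVELD2 entered that test only through siTDP43, so its direction was fixed. The noncoding LINC00470 had 89, 99 and 132 counts in input and 58, 54 and 60 in IP, and ARMCX2, an armadillo repeat protein, 102, 71 and 56 and then 67, 22 and 26. Both had at most 2 counts in any IgG or WT library. TNFRSF10D, a decoy receptor for the death ligand TRAIL, had 158, 134 and 195 counts in input and 18, 22 and 6 in IP.

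STK31, LMO3, UPK1B, PRRX1 and CPQ had 59 to 168 counts in each siTDP43 input and at most 16 in any siTDP43 IP library. STK31 is a kinase gene of the testis, LMO3 a LIM-domain cofactor, UPK1B a uroplakin of the bladder lining and PRRX1 a homeobox factor of mesenchyme. KRT38, ARMC3, SCN2A and KCNT2 had 66 to 92 counts in each siTDP43 input and at most 2 in any siTDP43 IP library. KRT38 is a hair keratin, and SCN2A and KCNT2 encode a sodium and a potassium channel.

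KCNT2 ran against its genotype in the pull-down. It had 0 counts in all 3 siTDP43 IP libraries and 8, 6 and 10 in WT IP, where the WT inputs held 0. It was too low to be tested. CNKSR2, a scaffold of Ras signalling at synapses, had 16, 22 and 2 counts in siTDP43 IgG against 8, 18 and 5 in the deeper siTDP43 IP.

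IFNB1, CXCL11, CCL20, VCAM1 and CCL2, which interferon or inflammatory signals are known to involve, were on in WT. No list of such genes was tested, and DTX3L and its partner PARP9, which interferon is known to induce, were higher in siTDP43 input. IFNB1 (hg19 chr9:21077104-21077943) had 154, 216 and 152 counts in WT input and 70, 72 and 62 in WT IP. It had 0 in both WT IgG libraries and 0 in all 9 siTDP43 libraries. IFNB1 was at least 9.64-fold lower in siTDP43 IP than in WT IP (log2 change -8.62 ± 0.96 (SE), edgeR adjusted p = 2.70e-07) and at least 9.41-fold higher in WT IP than in WT IgG (edgeR adjusted p = 8.31e-08).

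The chemokine and adhesion genes were far weaker in the pull-down than IFNB1. CXCL11 had 50, 101 and 85 counts in WT input and 8, 8 and 0 in WT IP. CCL20 had 66, 99 and 62 counts in WT input and 0 in every other library. VCAM1 had 98, 98 and 66 in WT input and 0, 4 and 0 in WT IP, with 0 in WT IgG. At the level of their inputs, the WT IP libraries would have held 45.8 to 50.4 counts of CXCL11 and CCL20 and 53.9 to 57.9 of VCAM1.

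CCL2, a chemokine that attracts monocytes, differed from these genes. It had 127, 106 and 88 counts in WT input, 0 in all 3 WT IP libraries and 50 and 32 in the WT IgG libraries, which were sequenced less deeply than WT IP. CCL2 was at least 32.6-fold lower in WT IP than in WT IgG (log2 change -9.67 ± 0.87 (SE), edgeR adjusted p = 1.33e-09, n = 3 and 2). It thus paralleled GFRA3 on the siTDP43 side. CCL5, CXCL10, IFI44 and RSAD2, the 4 genes left out by name, are also induced by interferon or inflammatory signals.

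Some genes on in WT are known from neurons, as are several on in siTDP43, such as NPY, TAC1 and SCN2A. RBFOX3, the splicing factor known as NeuN, had 111, 207 and 186 counts in WT input, 357, 402 and 365 in WT IP and 26 and 34 in WT IgG. In siTDP43 it had 2, 0 and 2 counts in input and 0 in IgG, but 32, 35 and 20 in IP. RBFOX3 was lower in siTDP43 IP than in WT IP by -2.51 ± 0.21 on the log2 scale (edgeR adjusted p = 2.28e-09). Its input difference was at least 44.3-fold.

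GNAO1, the alpha subunit of the G protein Go, had 85, 142 and 110 counts in WT input and 309, 311 and 322 in WT IP, which is 4.49 times its input CPM. WT IgG held 14 and 8 counts and siTDP43 IP 4, 0 and 0. GNAO1 was higher in WT IP than in WT IgG (log2 change 3.57 ± 0.29 (SE), edgeR adjusted p = 9.89e-11) and lower in siTDP43 IP than in WT IP (log2 change -6.64 ± 0.44 (SE), edgeR adjusted p = 6.00e-11). The test between genotypes was entered only through WT, so its direction was fixed.

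B3GAT1, which makes the HNK-1 carbohydrate epitope, had 128, 170 and 148 counts in WT input, 272, 240 and 264 in WT IP and 16 and 18 in WT IgG. GABRE and GABRB1 encode subunits of GABA-A receptors. GABRE had 63, 80 and 92 counts in WT input, 66, 82 and 56 in WT IP and 0 in both WT IgG libraries. GABRB1 had 35, 48 and 80 in WT input, 12, 6 and 17 in IP and 34 and 26 in IgG, and it was lower in WT IP than in WT IgG (log2 change -2.61 ± 0.51 (SE), edgeR adjusted p = 6.54e-05). Subunits of 1 receptor family stood on opposite sides of the IgG control.

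SYNDIG1 (a synapse protein), TTYH1 (a chloride channel of the brain), IGLON5 (a neural cell adhesion molecule) and ERBB4 (a neuregulin receptor) were also on in WT. SYNDIG1 had 192, 198 and 183 counts in WT input, 89, 116 and 114 in IP and 63 and 37 in IgG. It was lower in siTDP43 IgG, with 0, 0 and 6 counts, than in WT IgG (log2 change -2.66 ± 0.85 (SE), edgeR adjusted p = 0.00879). SYNDIG1 entered that test only through WT IgG, so its direction was fixed. The call was lost with DESeq2 (adjusted p = 0.0725) and without either WT IgG library (log2 changes -2.29 and -2.98). IGLON5 had 44, 65 and 64 counts in WT input, 70, 84 and 86 in IP and 8 and 8 in IgG, and 4, 4 and 2 in siTDP43 IgG.

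PNPLA4 (a lipase of the patatin-like family, hg19 chrX:7866804-7895780) had the highest mean count of all 55 genes. It had 780, 1091 and 952 counts in WT input and 0, 0 and 1 in siTDP43 input. In the pull-downs it had 436, 455 and 510 counts in WT IP, 6 and 20 in WT IgG and 0 in all 6 siTDP43 libraries. PNPLA4 was at least 66.5-fold lower in siTDP43 IP than in WT IP (log2 change -11.40 ± 0.55 (SE), edgeR adjusted p = 3.48e-12).

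MFAP2 had 624, 753 and 620 counts in WT input, 590, 526 and 514 in IP and 326 and 220 in IgG, against at most 2 in any siTDP43 library. It was at least 77.1-fold lower in siTDP43 IP than in WT IP (edgeR adjusted p = 2.40e-13) and at least 23.3-fold lower in siTDP43 IgG than in WT IgG (edgeR adjusted p = 1.10e-07). MFAP2 was abundant in both WT pull-downs, and its IP and IgG libraries overlapped (edgeR adjusted p = 0.072). Without WT IgG 2 its IP was lower than IgG (log2 change -0.48, edgeR adjusted p = 0.00264).

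PSMD5, a chaperone for assembly of the proteasome's regulatory particle, had 442, 545 and 518 counts in WT input and 2, 0 and 0 in siTDP43 input. It had 136, 124 and 88 in WT IP, 0 and 2 in WT IgG, 0 in siTDP43 IP and 0, 2 and 4 in siTDP43 IgG. The pseudogene transcript LOC253039 (CUTALP), which starts 114 bases from PSMD5 on the other strand, was on in WT as well, with 59, 72 and 71 counts against 0. The start region of PSMD5 printed above spans that gap. LOC253039 had 79, 132 and 64 counts in WT IP, 2.14 times its input CPM, where PSMD5 had 0.365 times.

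GNAS-AS1, an imprinted antisense RNA of the GNAS locus, had 174, 287 and 237 counts in WT input and 230, 231 and 255 in WT IP, with at most 2 in any siTDP43 library. SNX19, a sorting nexin, and TOX3, a chromatin factor, were higher in IgG than in IP. SNX19 had 44, 86 and 40 counts in WT IP and 98 and 90 in WT IgG (log2 change of IP over IgG -2.00 ± 0.26 (SE), edgeR adjusted p = 2.94e-07). TOX3 had 124, 182 and 100 and then 164 and 216 (-1.77 ± 0.21, edgeR adjusted p = 7.32e-08). ADM2, the hormone intermedin, had 312, 264 and 248 counts in WT IP and 214 and 226 in WT IgG against 80, 106 and 120 in WT input.

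The cancer-testis genes MAGEA3 and MAGEA12 are related genes of the MAGEA family on chromosome X. Reads shared within the family could be lost or misplaced when only unique reads are counted. MAGEA3 had 69, 124 and 117 counts in WT input and 0 in both WT pull-downs. MAGEA12 had 75, 121 and 70 counts in WT input and 34, 28 and 18 in WT IP. MAGEA6, another gene of the family, had 62, 128 and 112 counts in WT input and 10, 22 and 24 in WT IP. MAGEA6 was still seen in siTDP43 input, with 21, 18 and 6 counts. CSAG1, which starts 44 bases from MAGEA12 on the other strand, had 48, 67 and 72 counts in WT input and 2, 5 and 1 in siTDP43 input, outside the limit of the rule. Of 8 genes with a symbol prefix of cancer-testis families that were tested between the inputs, 3 were higher and 4 lower in siTDP43, beside 38.6% and 40.6% over all genes. MAGEA3 and MAGEA12 are among the 4, and the rule chose them from these inputs, so their direction was fixed.

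The genes on in WT also included SUSD3, KLHL35, CDH11, C12orf56, CRYAB, LAMB3 and MACROD2. SUSD3, KLHL35 and CDH11, a mesenchymal cadherin, had 34 to 138 counts in each WT input and 0 in all WT IP and IgG libraries. CRYAB, a small heat shock protein, had 6, 6 and 10 in WT IP, and LAMB3, a laminin chain, 22, 24 and 18, both with 0 in IgG. MACROD2, an ADP-ribosylhydrolase, had 117, 106 and 146 in WT IP against 43, 77 and 59 in WT input.

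The genotype difference was then followed in the pull-downs, which the rule had not used. In siTDP43 IP, 17 of the 24 genes on in siTDP43 had all 3 libraries above all 3 WT IP libraries and 1, KCNT2, below, beside 36.9% higher and 47.1% lower without overlap over all genes tested. Of the 31 genes on in WT, 0 were higher and 22 were lower without overlap. By edgeR's test 11 of the 24 and 19 of the 31 could be tested, and these were called higher and lower, respectively, against 36.7% called higher and 46.5% lower over all genes. A gene at the floor in one genotype could enter the test only through the other. The same was true of DUSP23, MARVELD2 and GNAO1, which were near it. No weight is put on these counts or on the single tests of such genes given above.

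In the IgG libraries fewer genes were seen. There 5 of the 24 were higher in siTDP43 and 13 of the 31 lower with no overlap of the libraries, beside 37.3% and 48.7% over all genes tested. The test could be made for 5 and 8 of them, which were called in the direction of their inputs, against 34.8% higher and 45.1% lower over all genes. All of these but SYNDIG1 were at the floor in IgG of the other genotype and entered the test only through their own. SYNDIG1, with 0, 0 and 6 counts in siTDP43 IgG, also entered it only through WT. No weight is put on these counts either, or on the single tests of these genes. The 5 on the siTDP43 side were NME5, DUSP23, DTX3L, GFRA3 and CNKSR2.

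At most 3 counts in every library was the pull-down state of most of the genes in the genotype whose input lacked them. Of the 24 genes on in siTDP43, 20 were at or under that limit in WT IP (83.3%) and 23 in WT IgG (95.8%), against 2.90% and 17.5% of all genes whose mean siTDP43 input count lay in the same range. Of the 31 genes on in WT, 29 were at or under it in siTDP43 IP (93.5%) and 28 in siTDP43 IgG (90.3%), against 7.06% and 30.5%. The exceptions in WT IP were NME5, DUSP23, MARVELD2 and KCNT2, and in siTDP43 IP RBFOX3 and GNAO1. These libraries may share their RNA with the inputs. The reference genes were not required to be absent from the input of the other genotype, as these genes were. A gap in these shares thus follows from the rule, and no weight is put on it.

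Within the genotype where a gene was on, some of the genes were also missing from the pull-downs. In siTDP43 IP 5 of the 24 genes on in siTDP43 had at most 3 counts in every library (20.8%), against 6.74% of genes in the same range of input counts. In siTDP43 IgG they were 15 (62.5%), against 35.5%. In WT IP 6 of the 31 genes on in WT were at or under the limit (19.4%), against 1.26%, and in WT IgG 15 (48.4%), against 12.8%. At the level of their inputs, all 24 and all 31 would have had more than 3 counts in each of those libraries. The range of mean input counts ran from 53 to 274 in siTDP43 and from 54.3 to 941 in WT. Levels within it were not matched, and their part in these shares was not tested.

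**Figure D3:**
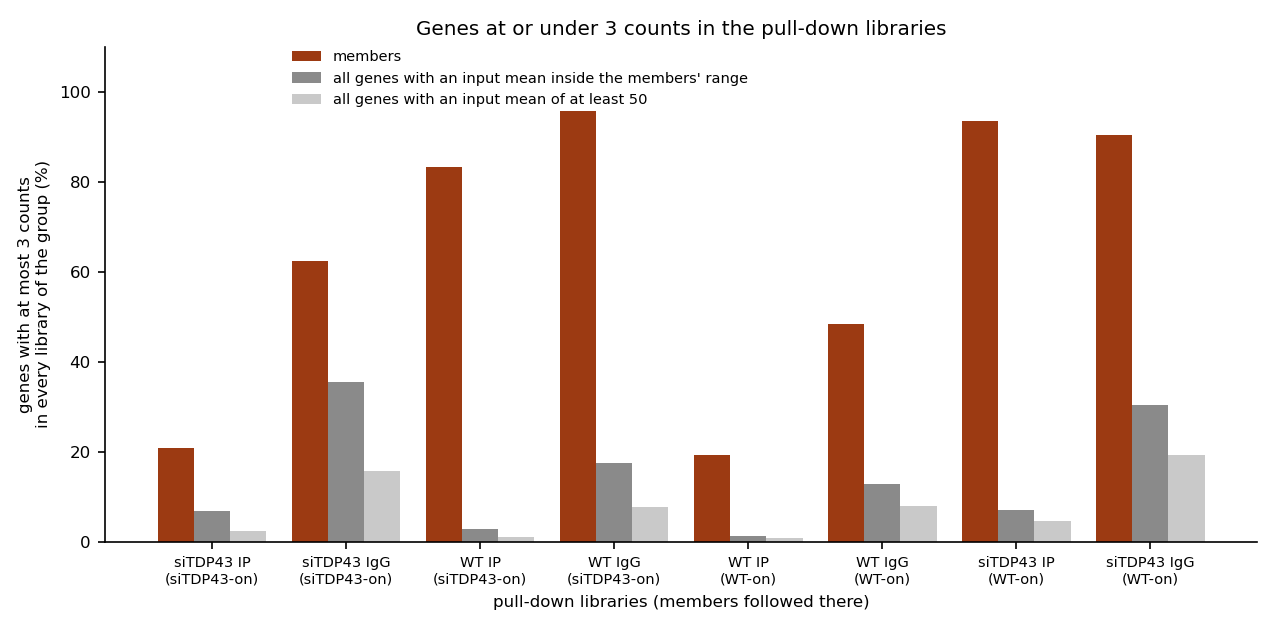
Share of genes (percent, axis from 0) with at most 3 counts in every library of a pull-down group, for the genes on in siTDP43 (24) or in WT (31), for all genes whose mean input count in that genotype lay within the range of those genes, and for all genes with a mean of at least 50 input counts there. The shares were 83.3 to 95.8% in the genotype whose input lacked the genes and 19.4 to 62.5% in their own genotype, above both reference shares in each of the 8 groups. Levels within the range were not matched, and the reference genes were not required to be absent from the input of the other genotype.

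Within a genotype, the genes spread to both sides of the IgG control. In siTDP43, 12 of the 24 genes on in siTDP43 were called higher and 8 lower in IP than in IgG, against 44.9% higher and 28.5% lower over all 12746 genes tested, so these shares were near those of all genes. SCN2A, ARMC3 and KCNT2 were among the 8, with 0 counts in IP and at most 4 in any IgG library, and their libraries overlapped. In WT, 14 of the 31 genes on in WT were called higher and 5 lower, against 47.1% and 34.0% over all 14751 genes. The share higher was again close to the background, while the share lower was below it. Another 12 of the 31 were not called. Among these, SUSD3, MAGEA3, CCL20, KLHL35 and CDH11 had 0 counts in both WT pull-downs and entered the fit only through the WT inputs. The groups at the floor give only bounds for IP over IgG. These were at least 6.95-fold for EDNRB, 6.22-fold for NPY, 4.87-fold for LINC00470 and 2.93-fold for ARMCX2 in siTDP43. In WT they were at least 16-fold for PSMD5, 9.41-fold for IFNB1, 9.38-fold for GABRE, 8.05-fold for TTYH1 and 3.67-fold for MAGEA12.

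Relative to input, given without a test because the inputs chose the genes, the median IP level was 0.446 of the input CPM for the genes on in siTDP43 and 0.575 for those on in WT. The medians over all genes with a mean of at least 50 counts were 0.682 and 0.948. The IgG level had a median of 0.0204 and 0.0490, against 0.452 and 0.800. These medians were not matched on level: 22 of the 24 and 27 of the 31 lay below the median FPKM of all those genes. The part of low level was not tested. The ratio of IP to input was above 1 for 6 of the 24 and 11 of the 31.

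**Figure D4:**
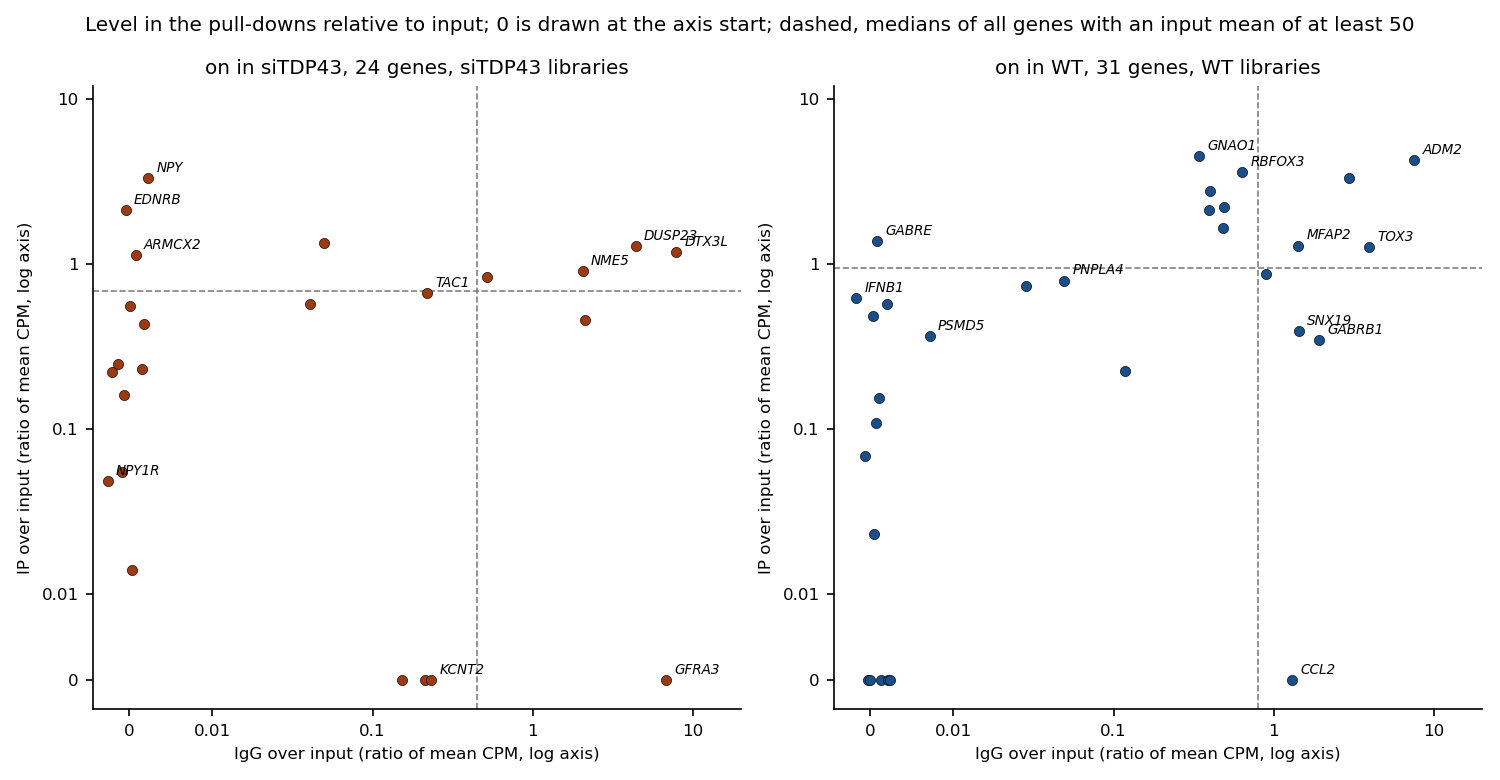
IP over input (vertical) against IgG over input (horizontal), each a ratio of mean CPM on a log axis, for the 24 genes on in siTDP43 in siTDP43 libraries (left) and the 31 genes on in WT in WT libraries (right); values of 0 are drawn at the axis start, with those of IgG spread sideways for visibility, and dashed lines are medians of all genes with a mean of at least 50 input counts. NPY and EDNRB lie high with 0 in IgG, GFRA3 and CCL2 lie at 0 in IP with 6.81 and 1.30 times their input level in IgG, and ADM2 lies above its input in both.

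The genes lay on many chromosomes, and a few were close together. MAGEA3 and MAGEA12 were 31468 bases apart and shared chromosome X with GABRE, which lay 756142 bases from MAGEA12. NME5 and GFRA3 were 112937 bases apart on chromosome 5, and STK31 and NPY 451680 bases apart on chromosome 7. Both members of each of these pairs were on in the same genotype. The expressed gene next to STK31, C7orf46, had means of 510 counts in siTDP43 input and 36 in WT input.

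Most neighbours did not follow. Over the 38 nearest expressed neighbours of the genes on in siTDP43 the median log2 change in input was 0.22, and 8 (21.1%) differed over 2-fold in the same direction, against 15.6% of all genes. Over the 48 neighbours of the genes on in WT the median was 0.02, and 13 (27.1%) differed over 2-fold in the same direction, against 20.1% of all genes.

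Start regions of 300 bases (250 before and 50 after the start, RefSeq on GRCh38.p14) were found for 19 of the 24 and 23 of the 31 genes. A window was called CpG-rich when its GC content was above 50% and its observed over expected CpG ratio above 0.6. By that measure 11 of 19 windows of genes on in siTDP43 (57.9%) and 11 of 23 of genes on in WT (47.8%) were CpG-rich, against 82.8% of the 9929 windows of genes with a mean of at least 50 input counts. CNKSR2 and GNAO1 had the most CpGs on each side, with 45 and 48, while SCN2A had 2 and CXCL11 had 0.

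Motifs were searched on both strands of the windows. TATAAA was found in 4 of 19 (21.1%) and 5 of 23 (21.7%), against 5.23% of all windows. The NF-kappaB motif was found in 2 of 19 (10.5%) and 6 of 23 (26.1%), against 6.59%. The 6 on the WT side were IFNB1, CXCL11, CCL20, VCAM1, B3GAT1 and LAMB3, and the first 4 of these also held TATAAA. The GAAA repeat described above was found in 1 of 19 (5.26%, DTX3L) and 1 of 23 (4.35%, VCAM1), against 2.54%. A match describes letters and does not show that a factor binds there.

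**Figure D5:**
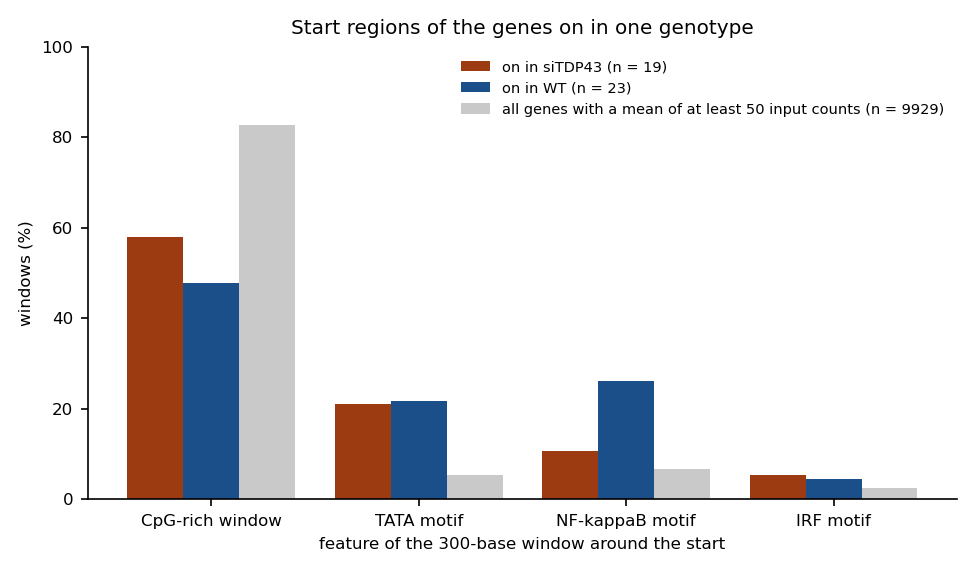
Percent of 300-base start windows (axis from 0) that were CpG-rich or held a TATA motif (TATAAA), an NF-kappaB motif or an interferon regulatory factor motif (GAAA, any 2 bases, GAAA), for genes on in siTDP43, genes on in WT and all genes with a mean of at least 50 input counts. CpG-rich windows made up 57.9%, 47.8% and 82.8%, and the NF-kappaB motif was found in 10.5%, 26.1% and 6.59%.

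TDP43 binds UG repeats, so TGTGTG was counted in the exons of each gene, on the gene's strand of hg19. It was present in 17 of the 24 genes on in siTDP43 (70.8%) and 17 of the 31 on in WT (54.8%), against 67.7% of all genes with a mean of at least 50 input counts. Per kilobase of exon the mean numbers of sites were 0.498, 0.462 and 0.467, and the medians were 0.384, 0.274 and 0.354. Median exon GC was 41.4% for the genes on in siTDP43 and 50.1% for those on in WT, against 48.7% over all genes.

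The machinery that silences genes was read from 2 further lists. Of 10 DNA methylation genes tested between the inputs, 2 were higher and 7 lower in siTDP43. DNMT3A and DNMT3B, which place new methyl groups, were lower (log2 changes -1.40 ± 0.24 and -1.23 ± 0.11 (SE), edgeR adjusted p = 4.38e-06 and 1.51e-11), and UHRF1, which guides maintenance methylation, was higher (1.89 ± 0.08, edgeR adjusted p = 8.00e-20). Of 10 genes of Polycomb repressive complex 2 tested, 6 were higher and 3 lower. SUZ12 was lower (-1.86 ± 0.12 (SE), edgeR adjusted p = 4.66e-15) while EZH2, its catalytic partner, had a log2 change of -0.04 and did not pass (edgeR adjusted p = 0.413). These shares stand beside the 38.6% higher and 40.6% lower over all genes tested, and their part in the genes described here was not tested.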

How the data were processed

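The 17 libraries hold acRIP-seq of poly(A) RNA from HEK293T cells and were grouped by their labels. The authors made libraries by Smart-seq2, trimmed reads with Trim Galore 0.6.7, aligned them with STAR 2.7.10a and counted uniquely mapped reads per gene with featureCounts 2.0.2. The study's methods name hg19 for these cells, while the submitters' processing notes name mm10 alone. The gene coordinates in the table are human, and their exon lengths matched GRCh37. The deposited table holds raw counts with no normalization. From 81.3 to 95.9% of counts from 1 to 20 were even, so read mates appear to have been counted singly, which bears on a limit of 3 counts. No molecular identifiers were used, so floors cover counting error only.

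The members and the gene lists were chosen with earlier results of these data known. Tests on counts used edgeR 4.0.16 under R 4.3.3 (quasi-likelihood F test, two-sided, TMM, filterByExpr with a minimum count of 10, Benjamini-Hochberg over all genes tested, calls at an adjusted p under 0.05). IP against IgG within a genotype was fitted with the inputs of that genotype. SE is the log2 change divided by the square root of F. CPM in bounds uses TMM library sizes, and CPM in ratios of pull-down to input uses totals. Fits with a group at 0 give log2 changes that depend on the prior count, so the bound against 3 counts per library is given beside them. The test was tried on simulated counts, with changes set only in genes of high mean count, and recovered most of the changed genes. No group was set to 0 there, so the trial does not cover members at the floor.

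Genes singled out with tests were NPY1R and NME5, the 12 members with the highest mean input count in each direction, the 3 largest and 3 smallest fitted log2 changes of IP over IgG in each direction, and members seen against their genotype in the pull-downs; other members are given by their counts, and those of them given with a test were chosen after their values were seen. Lists covered the NPY system, the NME family, HEK293T identity, epithelial, fibroblast, blood, endothelial, neural crest and melanocyte markers, DNA methylation, Polycomb repressive complex 2 and cancer-testis families. Epithelial genes summed to 4.78 to 7.90 CPM and neural crest and melanocyte genes to 8.66 to 15.5 CPM in the inputs. No replicate duplicated another (chi-square per degree of freedom 3.26 to 9.43). Alternatives included DESeq2 1.42.0. Start regions for TNFRSF10D, LINC00470, CPQ, NPFFR2, GNAS-AS1, SNX19, SYNDIG1, TOX3, CCL2, CRYAB, LOC253039 and CDH11 were not used here. One gene on in siTDP43 is counted in the totals and is not reported here by its own values.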

Additional observations from a re-analysis of the deposited data

How the results depend on the processing

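Counts of called genes moved with the filter on low counts and with all 17 libraries in one fit, which also tested all 24 and all 31 genes, so these changes cannot be told apart there. For siTDP43 IP against WT IP, the 11 genes on in siTDP43 called higher became 19 with no filter and 19 with all 17 libraries in one fit, both of which also called 1 lower, and became 2 under a filter on a mean of at least 50 counts, where only 2 could be tested. The 19 genes on in WT called lower became 11 under that filter. For siTDP43 IgG against WT IgG, the 5 genes on in siTDP43 called higher became 2 under that filter and 9 with all 17 libraries, and the 8 genes on in WT called lower became 3 and 13, with 1 called higher in the latter fit. For siTDP43 IP against siTDP43 IgG, the 12 higher and 8 lower became 5 and 3 under that filter, where 9 could be tested. Over all genes in input, a required fold of 2 (an alternative chosen after seeing the data, as were all others for that comparison) gave 1621 higher and 2161 lower. Under scaling by total counts, the all-gene median of the log2 change went from -0.23 to -0.60 in IP and from -0.31 to -0.76 in IgG between genotypes, and from 0.33 to 0.54 in siTDP43 and 0.29 to 0.42 in WT between IP and IgG. It then called 3923 genes higher and 7568 lower in IP, and 2878 and 5869 in IgG.

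The number of genes depended on the limits. It was 15 on in WT when no count was allowed in the other genotype, 47 on in siTDP43 and 145 on in WT when 10 were allowed, 10 and 17 at a mean of at least 100 counts, and 15 on in siTDP43 with counts halved and rounded up, of which 10 were among the 24. With a limit of 10 counts, 9 genes on in siTDP43 were at or under it in siTDP43 IP.

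Leaving out 1 library at a time gave 22 to 32 genes on in siTDP43 and 30 to 45 on in WT. It gave 14 to 16 higher and 19 to 20 lower in IP, 4 to 5 higher and 8 to 11 lower in IgG, 9 to 12 higher and 8 lower for siTDP43 IP against IgG, and 13 to 16 higher and 5 to 6 lower for WT IP against IgG. In IP these fits could test 14 to 16 of the genes on in siTDP43, against 11 with all libraries, and called all of those tested. Over all genes in input, leaving out 1 library gave 5257 to 5400 higher and 5438 to 5730 lower. Genes on in siTDP43 at or under 3 counts ranged from 5 to 6 in siTDP43 IP, 15 to 18 in siTDP43 IgG, 20 to 21 in the IP of WT and 23 to 24 in the IgG of WT, and genes on in WT from 29 to 30 in siTDP43 IP, 28 to 30 in siTDP43 IgG, 6 to 7 in the IP of WT and 15 to 17 in the IgG of WT. With 1 WT IgG library the lone sample is assumed to vary like the other groups. SYNDIG1 in WT IP against WT IgG had log2 changes of -0.46 and 0.22 without either WT IgG library, and passed in neither. Of the other values of single genes, 16 lost and 5 gained their call and 960 kept both direction and side of the threshold. The cause of these changes was not tested.

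The replicate numbers did not pair the libraries, with correlations of same-numbered deviations of -0.026 to 0.044. A replicate block gave the same counts of called genes described here, except 10 in place of 12 higher for siTDP43 IP against IgG, with 4871 genes higher and 6239 lower over all genes in IP, and moved TAC1 in siTDP43 IP against IgG to 1.39 (edgeR adjusted p = 0.0605).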
